A study of Mus musculus with 4 samples.

Results

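Tenascins, the chondroitin sulfate proteoglycans they bind and a link protein form much of the extracellular matrix of the developing brain, and chromatin accessibility at 9 of their genes is described here. The genes are Tnc, Tnr, Ptprz1, Bcan, Ncan, Vcan, Acan, Cspg5 and Hapln1. Their regions were chosen by the gene name in the deposited count table, which is the gene with the nearest start site, and promoter and distal regions were kept apart. They number 39 of the 29121 regions in the table, 7 at promoters and 32 distal. A promoter region overlaps the window of 1 kb on each side of the start site. The family was chosen with results of the comparison below in view, among them the rise of a region in Tnc. That region was part of the fit, but it is described without a p-value and called untested below. For the other genes, adjusted p-values from a fit over all 28801 tested regions are given as a description, since results of the same comparison were known when the family was chosen.

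The assay was ATAC-seq, in which a transposase cuts open chromatin and the density of sequenced tags measures accessibility. It was run on neurospheres, floating clusters of neural progenitor cells, from the hippocampus of newborn (P0) C57BL/6 mice, kept for 7 days with 20 ng/ml FGF-2 and 20 ng/ml EGF in the medium. Controls and Fgf13cko alike carried hGFAPCre, a Cre recombinase driven by the promoter of the human GFAP gene, which is active in radial glia and their progeny. The 2 control cultures were Fgf13+/y, from littermates, and the 2 Fgf13cko cultures were Fgf13 flox/y. Fgf13, on the X chromosome, encodes an intracellular protein of the FGF family. Its 4 tested regions had 0 calls. Those at start sites had counts of 88.7 and 86.8 in controls against 87.6 and 67.9, and 103 and 100 against 127 and 81.7. Which exon is floxed is not given in the labels, so these regions do not check the genotypes. The cells of an animal filled 2 wells. Since it is not stated that cultures of a group had different animals as their source, p-values reflect only how far these samples differ, which may be technical.

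Tenascin C is a glycoprotein secreted by radial glia and stem cells of the neurogenic niches, and tenascin R, made largely by the oligodendrocyte lineage and some neurons, is a component of perineuronal nets. Brevican, neurocan, versican and aggrecan, encoded by Bcan, Ncan, Vcan and Acan, are lecticans, proteoglycans that bind hyaluronan at 1 end and tenascins at the other. The link protein encoded by Hapln1 holds lecticans on hyaluronan. Ptprz1 encodes a receptor tyrosine phosphatase of progenitors and glia that carries chondroitin sulfate, and Cspg5 encodes neuroglycan C, a transmembrane proteoglycan with an EGF-like domain.

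The sequences before 3 start sites are shown. Tnc is the gene whose intron prompted the choice of the family, and its promoter is shown for comparison with the others. Ncan has a peak over its start site that was called in both controls alone, and Acan has a start-site peak that was missed in 1 control. They come from RefSeq (GRCm38.p6, the coordinates of mm10), are read 5′ to 3′ on the gene's strand, and leave out bases inside the annotated gene. Capitals mark CpG dinucleotides. Tnc is at chr4:64047016-64047265 (minus strand), Ncan at chr8:70120864-70121094 (minus strand) and Acan at chr7:79052976-79053225 (plus strand).
Tnc: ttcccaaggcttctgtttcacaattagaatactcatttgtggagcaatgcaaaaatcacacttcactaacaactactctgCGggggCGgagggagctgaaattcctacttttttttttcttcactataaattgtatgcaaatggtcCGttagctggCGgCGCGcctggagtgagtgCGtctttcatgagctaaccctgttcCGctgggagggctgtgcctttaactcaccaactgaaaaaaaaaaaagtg
Ncan: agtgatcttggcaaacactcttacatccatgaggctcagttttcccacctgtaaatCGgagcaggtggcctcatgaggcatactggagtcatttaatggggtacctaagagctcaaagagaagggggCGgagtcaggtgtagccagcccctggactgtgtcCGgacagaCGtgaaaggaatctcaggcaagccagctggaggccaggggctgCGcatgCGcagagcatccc
Acan: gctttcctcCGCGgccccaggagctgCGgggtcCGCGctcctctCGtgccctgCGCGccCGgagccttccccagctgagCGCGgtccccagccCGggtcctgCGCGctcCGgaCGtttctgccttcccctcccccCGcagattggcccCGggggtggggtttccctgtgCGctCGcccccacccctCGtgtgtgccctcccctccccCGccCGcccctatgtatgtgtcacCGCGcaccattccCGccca

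In the 250 bases before the start site, Acan had 26 CpG dinucleotides, Ptprz1 22, Bcan 16, Vcan 10, Tnc 8, Ncan 6, and Tnr and Hapln1 2 each, against a median of 6 over 32851 promoters. The CpG-rich Acan promoter had no region in the count table, while the CpG-poor Tnr promoter had one. The RefSeq promoter table held 8 of the 9 genes and not Cspg5. Their windows of 300 bases, from 250 before to 50 after the first listed start, were searched on both strands for 8 motifs. CCAAT (NF-Y) was found at Bcan, Acan and Vcan, and in 37.4% of all promoters. GGGGCGGGG (SP factors) was found at Bcan and Ptprz1 (11.4% of all). CAGCTG (an E-box) was found at Ncan and Acan (16.3%), ACAAAG (SOX) at Tnr (18.7%) and GGAATG (TEAD) at Acan (14.7%). TGANTCA (AP-1, 7.81%), CCGGAAG (ETS, 8.86%) and the NFI palindrome (0.0365%) matched none of the 8 windows. The Tnc window matched none of the 8 motifs. These are matches of letters only.

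The libraries differed in ways that bear on the values. The tag totals were 24.9 and 26.0 M in controls and 16.8 and 13.1 M in Fgf13cko, of which 2.55 to 3.25 M lay in nuclear regions. Mitochondrial regions took 23.4% and 27.0% of all tags in controls and 9.54% and 9.19% in Fgf13cko. The Fgf13cko 1 library stood apart in narrow regions: of 7445 tested regions under 650 bp, a limit set after the data were seen, 51.3% differed over 2-fold between the Fgf13cko libraries, and 99.8% of these were lower in Fgf13cko 1. Of the 21356 wider regions 1.74% differed as much. The table holds only regions with a peak in all 4 libraries at these loci, so regions open in 1 group are described from the peak lists.

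As a check of the labelled cell type, all 8 stem cell and radial glia markers (such as Sox2, Nes and Pax6) had a promoter region, and 0 of 8 passed the test. The summed promoter count of that list was 1390 and 1630 in controls and 1850 and 1530 in Fgf13cko. Of 6 neuronal markers, Dcx and Rbfox3 had no promoter region, Syt1 and Map2 rose, and the list summed to 393 and 423 in controls and to 668 and 648 in Fgf13cko. Gpr17 fell among 4 measured promoters of oligodendrocyte precursor markers, whose sums were 592 and 667 against 714 and 551. Astrocyte markers, with no region at Gfap and Aqp4, had sums of 337 and 402 against 476 and 353, and 0 of 4 passed. Microglial markers had 1 measured promoter of 4 (sums of 39.4 and 27.2 against 11.5 and 21.2). Meningeal fibroblast markers had 2 of 5 (72.9 and 80.8 against 66.9 and 64.7) and endothelial markers 2 of 4 (148 and 141 against 161 and 114), with 0 called. Cell numbers of a type and accessibility per cell cannot be told apart in these bulk samples, and the part of the neuronal markers in the results below was not tested.

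Within the family, distal regions of Tnr, Ptprz1, Bcan and Cspg5 rose in Fgf13cko, beside the untested Tnc intron. Another distal region of Tnr fell (not with library size as sole scaling), and no promoter region passed the test. The Bcan region is distal by the start site used here. It lies directly beside the 5′ end of the RefSeq gene, and counts as a promoter region with a window of 2 kb. Of the 7 promoter regions 0 rose and 0 fell at an adjusted p under 0.05, where 1.42% of all tested promoter regions rose and 0.760% fell. DESeq2 also called 0, and at an unadjusted p under 0.05 in edgeR 2 (Ncan and Tnc) were higher and 0 lower. Without regard to the test, the Fgf13cko values lay above both controls at 3 promoters and below at 0, against 19.5% and 29.3% of all promoter regions. Of the 31 distal regions other than the Tnc intron 4 rose and 1 fell, where 9.48% of all distal regions rose and 2.24% fell. Both Fgf13cko values lay above both controls at 15 of these 31 and below at 5, against 34.7% and 22.4% of all distal regions. The median log2 fold change of the members was 0.34 at promoters (all promoter regions -0.06) and 0.17 at the 31 distal regions (all distal regions 0.09). Because the family was chosen with this comparison in view, nothing is read from these counts. All 39 regions passed the filter on low counts. Library size here and below means the tags summed over all regions, the 2 mitochondrial ones included. These sums were 8.6 and 10.28 M in controls and 4.15 and 3.84 M in Fgf13cko, so they carry the difference in mitochondrial tags. Scaled by library size alone, which lifted the median of all regions to 0.97, 6 promoter regions and 20 of the 31 distal regions rose and 0 fell. In that setting 17644 of all 28801 tested regions rose and 60 fell, so these member counts are not read as a result.

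**Figure D1:**
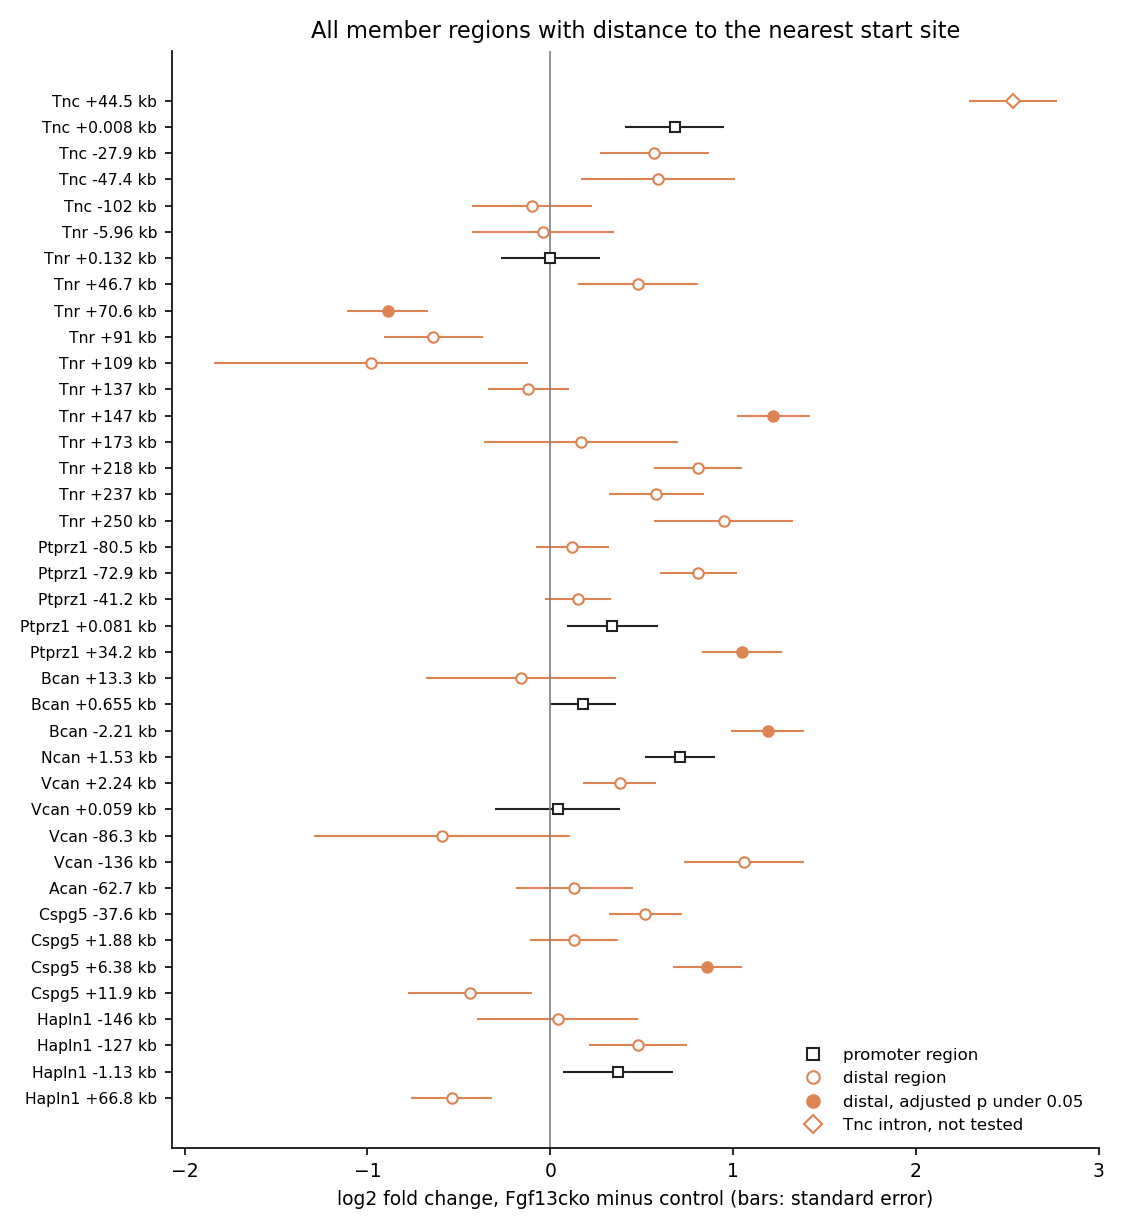
Log2 fold change of accessibility (x axis, Fgf13cko minus control, bars show the standard error) for each of the 39 regions, labelled by gene and distance to the start site. The Tnc region at +44.5 kb stands farthest out at 2.53, and is drawn as an open diamond because no p-value is given for it. The filled points mark the 5 other distal regions with an adjusted p under 0.05, and the 7 promoters (squares) lie between 0 and 0.71.

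Tnc (chromosome 4, 63959785 to 64047015, minus strand) had 5 regions, and the one known to rise when the family was chosen lies in intron 10, 44.5 kb into the gene, at 64002077 to 64002884. Its normalised tag count (tags divided by the relative effective library size) was 36.5 and 25.5 in controls and 168 and 189 in Fgf13cko. It was thus low in both controls and high in both Fgf13cko cultures. The fold difference was 5.76 (log2 2.53, SE 0.24), and the rise had rank 9 among all tested regions. These are values of the comparison that prompted the choice, so they are no support for the rise. The peak caller's fold over local background, the authors' own value, was 4.24 and 3.47 in controls and 6.74 and 6.84 in Fgf13cko, and a peak was called there in all 4 libraries. The log2 fold change lay between 2.29 and 2.8 when each library was left out in turn.

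The other Tnc regions moved less. The promoter region (64046561 to 64047454), which covers the start site and the Tnc sequence printed above, had 60.1 and 85.1 in controls and 138 and 95.5 in Fgf13cko (log2 fold change 0.68, SE 0.27, adjusted p = 0.169). Both Fgf13cko values were above both controls there, but the spread within each group was wide. The region 27.9 kb upstream (64074597) had 57.2 and 56.1 against 60.0 and 108, and the 1 at 47.4 kb (64094188) had 34.5 and 30.6 against 30.0 and 67.9, so that only Fgf13cko 2 was clearly high. The region 102 kb upstream (64148827) overlapped between groups, with 63.1 and 81.7 against 46.1 and 89.1. The lncRNA gene 8030451A03Rik overlaps the Tnc regions from the intron to 47.4 kb upstream, so the nearest gene need not be the one a region belongs to.

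Tnr (chromosome 1, 159523729 to 159931729, plus strand), the longest of the 9 genes at 408 kb, had 12 regions, and its first intron held regions that moved in opposite directions. The region 147 kb into intron 1 (159670638 to 159671509) had 80.8 and 95.3 in controls and 220 and 191 in Fgf13cko. It rose 2.34-fold (log2 fold change 1.22, SE 0.20, adjusted p = 0.00967). The region 70.6 kb into the same intron (159593966 to 159594830) had 135 and 148 in controls and 87.6 and 65.8 in Fgf13cko. It was the only member region that fell (-0.89 on the log2 scale, SE 0.22, adjusted p = 0.0422). Scaled by library size alone its log2 fold change was 0.07, below the 0.97 of the median region. DESeq2 gave it an adjusted p = 0.109. Without control 1 or control 2 the adjusted p of the rise was 0.14 and 0.0918, and that of the fall 0.208 and 0.37, so either omission ended both calls.

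Along Tnr, both Fgf13cko values lay below both controls at 70.6, 91.0 and 109 kb, and above them at 147, 173, 218, 237 and 250 kb. Of all distal regions 22.4% lay below and 34.7% above. The intron 1 regions at 46.7 and 137 kb overlapped between groups, and that at 173 kb differed little (log2 fold change 0.17, adjusted p = 0.888). Only the 2 regions named above passed. The region at 91.0 kb had 64.1 and 64.7 against 36.9 and 45.6 (log2 fold change -0.64, adjusted p = 0.207). That at 109 kb, a region of 348 bp, had 19.7 and 17.0 against 2.31 and 15.9, where the low value was in Fgf13cko 1. The region at 218 kb, in intron 2, had 68.0 and 68.1 against 142 and 97.6 (0.81, adjusted p = 0.0792, and 0.0497 with the replicate block). Those at 237 kb (55.2 and 69.8 against 78.4 and 109) and 250 kb (22.7 and 22.1 against 47.3 and 39.2) had log2 fold changes of 0.58 and 0.95, with adjusted p = 0.218 and 0.182. The region at 137 kb, among the highest of the gene in controls (142 and 143), had 157 and 106 in Fgf13cko and overlapped between groups. The promoter region (159523270 to 159524533) had 67.0 and 100 against 96.9 and 71.1, with group means of 83.7 and 84.0 and an adjusted p = 0.995. The promoter values of Tnr thus overlapped, while its intronic regions included some that overlapped and others that lay apart in either direction. No trait of the gene is read from this.

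**Figure D2:**
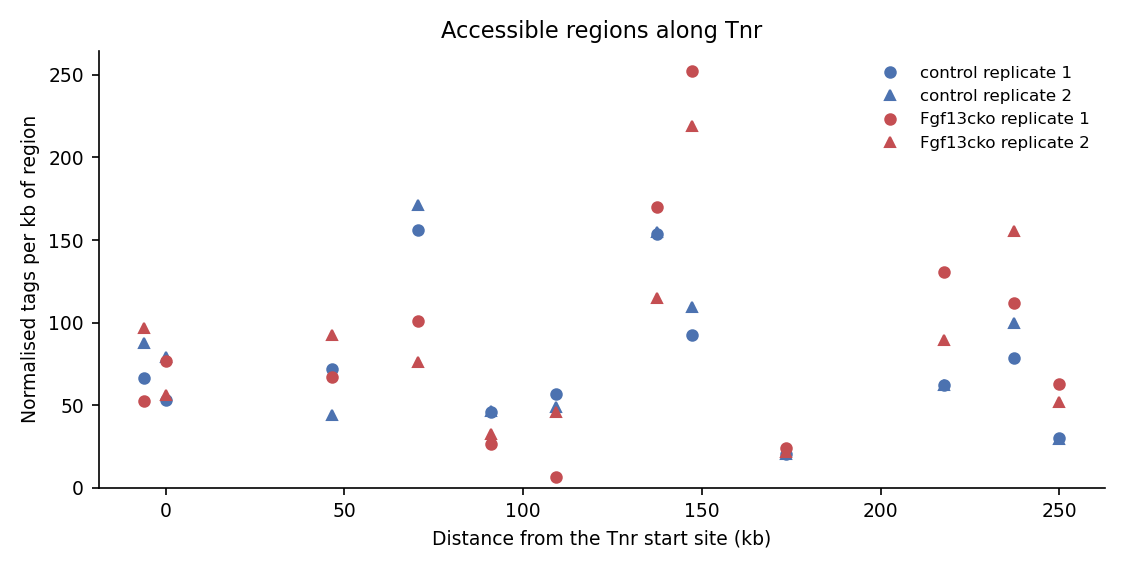
Normalised tags per kb of region (y axis) for the 12 Tnr regions by distance from the start site in kb (x axis), with 1 point per library. Fgf13cko points lie below the controls at 70.6, 91.0 and 109 kb and above them at 147, 173 (by little), 218, 237 and 250 kb. The groups overlap 5.96 kb upstream, at the promoter and at 46.7 and 137 kb. Of all distal regions 22.4% lay below and 34.7% above.

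Ptprz1 (chromosome 6, 22875315 to 23052916, plus strand), the phosphatase gene, had 5 regions. The one 34.2 kb into intron 1 (22908981 to 22910366) had 61.1 and 85.1 in controls and 159 and 144 in Fgf13cko. It rose 2.08-fold (log2 fold change 1.05, SE 0.22, adjusted p = 0.0253), with all values of Fgf13cko above those of the controls. The call ended in DESeq2 (adjusted p = 0.051) and without control 1 (0.319) or control 2 (0.0988). The region 72.9 kb upstream (22802067) had 78.8 and 68.9 against 143 and 117 and missed the threshold (0.81, SE 0.21, adjusted p = 0.0533). It passed under the replicate block (adjusted p = 0.0346), with crossed numbers (0.0207) and with regions of at least 50 tags (0.0353), and not in DESeq2 (0.199). Its neighbour 80.5 kb upstream (22794099), the region with the highest mean count of the family in controls, had 374 and 388 against 467 and 361 and overlapped. The promoter region (22875052 to 22876115) had 86.7 and 82.5 against 130 and 84.9, and here Fgf13cko 1 alone was high (0.34, adjusted p = 0.465). The strongest upstream region thus did not pass (0.12, adjusted p = 0.783), while the weaker intronic one did.

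Cspg5 (chromosome 9, 110243783 to 110262576), the gene of neuroglycan C, had 4 regions, and none of them met the definition of a promoter region. The region in intron 2 (110249734 to 110250584), 6.38 kb from the start site, had 85.7 and 84.2 in controls and 161 and 146 in Fgf13cko. It rose 1.81-fold (log2 fold change 0.86, SE 0.19, adjusted p = 0.0296). The call ended in DESeq2 (adjusted p = 0.114) and without control 1 (0.285) or control 2 (0.337). The region in intron 3 (110255396), 11.9 kb from the start, lay the other way, with 45.3 and 43.4 against 36.9 and 28.6 (-0.44, adjusted p = 0.495). The region over exon 1 (110244909), 1.88 kb from the start, had 93.6 and 107 against 131 and 89.1 and overlapped. The region assigned to Cspg5 that lies in an intron of the chromatin remodelling gene Smarcc1 (110205727) was the densest member region in controls at 262 ± 24.3 normalised tags per kb (SD, n = 2), and had counts of 254 and 223 against 383 and 300 (0.52, adjusted p = 0.168).

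Among the lecticans, Bcan (chromosome 3, 87987531 to 88002175, minus strand) had 3 regions. The region at 88002178 to 88002950 lies 2.21 kb upstream of the start site in the table. It is directly beside the 5′ end of the RefSeq gene (88002175), so it is distal only by the start site used here. It had 61.1 and 58.7 in controls and 131 and 142 in Fgf13cko. It rose 2.28-fold (log2 fold change 1.19, SE 0.20, adjusted p = 0.0111). Replicates of each group lay close together. With a promoter window of 2 kb it counts as a promoter region. Without control 1 or control 2 the adjusted p was 0.0975 and 0.147. The Bcan promoter region (87998718 to 88000685) had 199 and 224 against 254 and 227, a small difference (0.18, adjusted p = 0.612) at the most accessible promoter of the family in controls. The region at the gene's end (87986880), 404 bp wide, had 59.1 and 49.3 against 19.6 and 76.4, so the Fgf13cko libraries disagreed 3.9-fold and the groups overlapped.

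Ncan (chromosome 8, 70093085 to 70120863, minus strand), the neurocan gene, had 1 region, at 70118711 to 70119925 in intron 1, counted as a promoter because its edge reaches within 1 kb of the start site. It had 95.6 and 91.9 in controls and 150 and 156 in Fgf13cko, a 1.63-fold difference that missed the threshold (log2 fold change 0.71, SE 0.19, adjusted p = 0.0545). Replicates of each group lay within 1.04-fold of each other. With only regions of at least 50 tags on average in the test, the value was 0.64 with an adjusted p = 0.0422, and in DESeq2 it was 0.69 with an adjusted p = 0.227.

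Vcan (chromosome 13, 89655309 to 89743027, minus strand), the versican gene, had 4 regions and 0 calls. Its promoter region (89742205 to 89742701) had 39.4 and 37.4 against 32.3 and 46.7 and overlapped. The wide region 2.24 kb into the gene (89739180), with 254 and 260 against 378 and 291, was above both controls in both Fgf13cko cultures (0.38, adjusted p = 0.31). The region 136 kb upstream (89878446), which overlaps a LINE element in an intron of the DNA repair gene Xrcc4, had 24.6 and 25.5 against 51.9 and 53.0 (1.06, SE 0.33, adjusted p = 0.0919). Replicates there agreed closely, but the counts were low. The lncRNA gene Gm4117 overlaps the Vcan promoter region. Acan (chromosome 7, 79053226 to 79115099, plus strand), the aggrecan gene of perineuronal nets, had 1 region, a CpG island 62.7 kb upstream (78990113), with 48.3 and 35.7 against 49.6 and 42.4. Its groups overlapped (0.13, adjusted p = 0.853).

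Hapln1 (chromosome 13, 89540529 to 89611832, plus strand), the link protein gene, had 4 regions and 0 calls. The region in its last intron (89606981), 66.8 kb from the start, had 86.7 and 91.9 in controls and 60.0 and 62.6 in Fgf13cko (-0.54 on the log2 scale, adjusted p = 0.185). Scaled by library size alone this value was 0.43, again below the median region. The region 127 kb upstream (89412880) had 70.0 and 45.9 against 80.7 and 80.6 (0.48, adjusted p = 0.333). The promoter region (89539065 to 89539949), which ends short of the start site and overlaps the lncRNA gene Gm34699, had 57.2 and 40.0 against 53.1 and 72.1 and overlapped (0.37, adjusted p = 0.522).

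**Figure D3:**
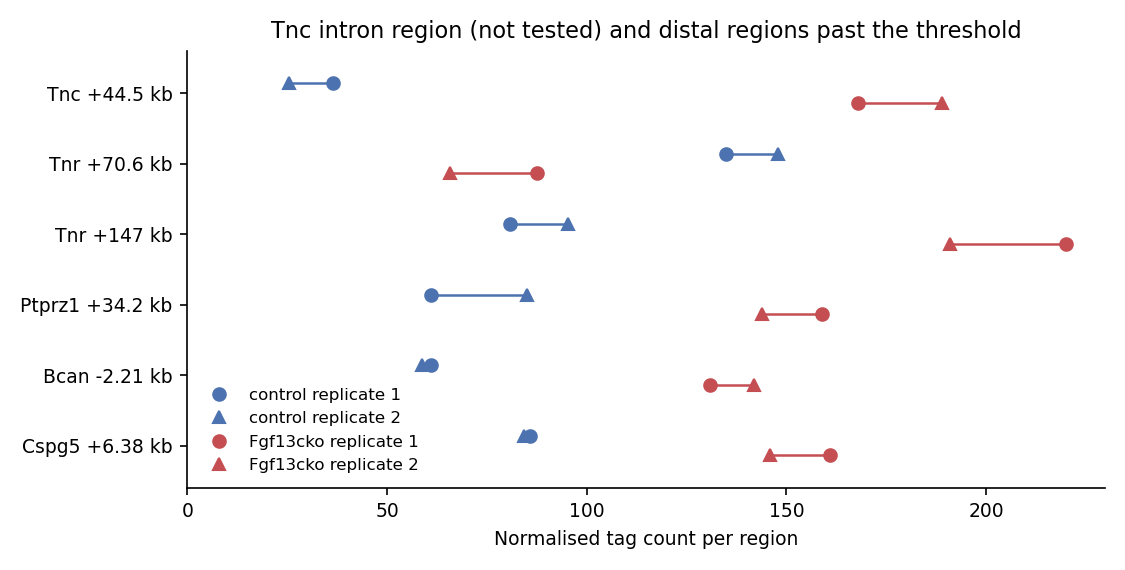
Normalised tag count per region (x axis) of the untested Tnc intron and the 5 other distal regions past the threshold, with 1 point per library and a line joining the replicates of a group. Tnc was known to rise when the family was chosen and the others were picked by the threshold. That the groups lie apart at each of them is therefore no separate result. Tnc is at 25.5 and 36.5 in controls and at 168 and 189 in Fgf13cko. Tnr at +70.6 kb is the region that fell (0.07 on the log2 scale with library size alone).

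The 5 distal regions past the threshold were all 773 bp wide or more. Over all tested regions 8.13% of those of 650 bp or more rose and 1.62% fell, against 0.672% and 1.71% of the narrower ones. Among the members, the Fgf13cko libraries differed over 2-fold in 5 of 39 regions, all lower in Fgf13cko 1, and all 5 were among the 7 regions under 650 bp. The controls differed over 2-fold in 0 of 39 regions, and their highest ratio was 1.63. The 5 regions were Tnc at 47.4 kb, Tnr at 109 kb, Bcan at the gene's end, Vcan at 86.3 kb and Hapln1 at 146 kb upstream. Without Fgf13cko 1 or Fgf13cko 2 the median log2 fold change of the 31 distal regions was 0.31 and 0.23, against 0.17 in the main fit. Calls became more frequent over all tested regions in these settings, as listed in the closing section, so nothing is read from those of the members. Without control 1 or control 2, 0 of the 31 were called in edgeR, with 6 and 5 higher and 1 and 1 lower at an unadjusted p under 0.05. A lone library was then assumed to vary like the other group.

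Per kb of region, promoter accessibility in controls ran from Bcan at 107 ± 8.86 normalised tags per kb (SD, n = 2 here and below) to Hapln1 at 54.9 ± 13.7. Between them lay Tnc (81.2 ± 19.7), Ptprz1 (79.5 ± 2.8), Vcan (77.3 ± 2.83), Ncan (77.1 ± 2.16) and Tnr (66.2 ± 18.7), where each neighbour in the order differed from the next by less than the sum of their SDs. In Fgf13cko the order was Tnc (131 ± 34.0), Ncan (126 ± 3.5), Bcan (122 ± 9.6), Ptprz1 (101 ± 30.2), Vcan (79.4 ± 20.5), Hapln1 (70.7 ± 15.2) and Tnr (66.4 ± 14.4). Neighbours in this order were also closer than the sum of their SDs. No change of rank is therefore read from these orders. Ncan had replicates close to each other in both groups, while the group means of Tnr and of Vcan nearly coincided.

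**Figure D4:**
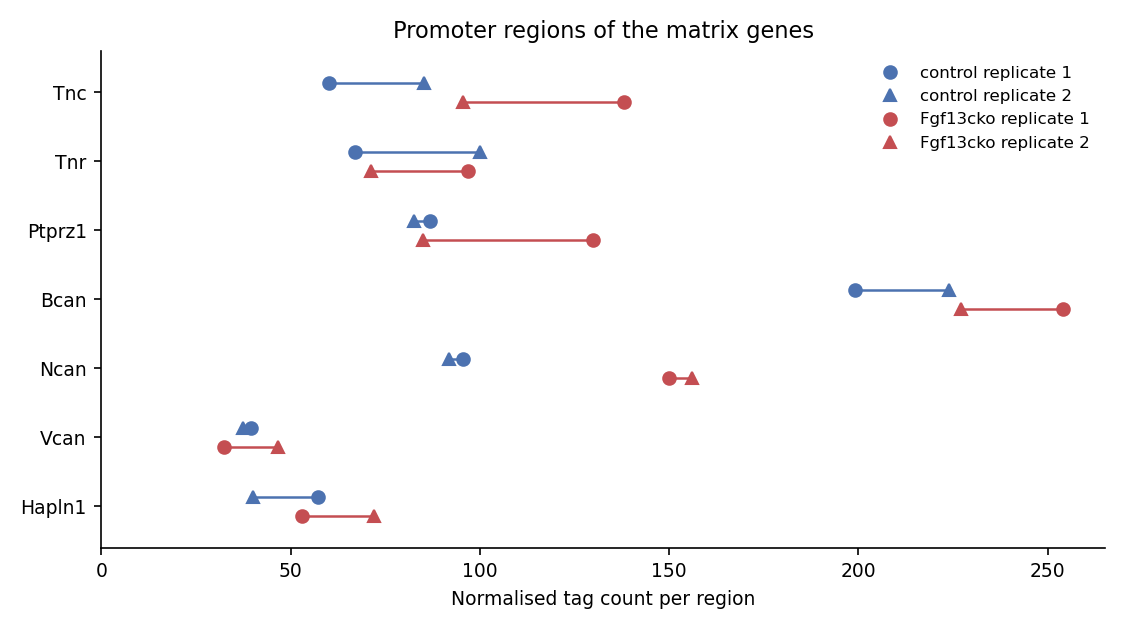
Normalised tag count (x axis) of the 7 promoter regions, with 1 point per library and a line joining the replicates of a group. Ncan shows the cleanest gap, from 91.9 and 95.6 in controls to 150 and 156 in Fgf13cko, while Tnr, Vcan, Ptprz1 and Hapln1 overlap.

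Peaks that were called in 1 group alone are not in the count table and were read from the 4 deposited lists, within each gene and 20 kb on each side. There were 87 merged peaks at the 9 loci, of which 33 were called in all 4 libraries, 8 in both Fgf13cko and no control, and 4 in both controls and no Fgf13cko. Over the genome 12.3% and 1.77% of 80077 merged peaks had these last patterns. The lists differ in length, with 38006 and 47148 peaks in controls and 64954 and 54373 in Fgf13cko, so these counts are a description. With only peaks of a -log10 q of at least 2, the counts were 6 and 6. The genome shares above do not apply to that setting.

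Ptprz1, with 17 merged peaks, had 3 of the 8 peaks found in Fgf13cko alone, where 12.3% of all merged peaks had this pattern. These 3 lay in the gene body (starting at 22889799, 22922967 and 22937401), with caller folds between 3.21 and 4.5. Nothing about the gene is read from this count. The others were upstream of Tnc (64065170), in Tnr (159595613), between Nes and Bcan (87981498), in the neighbouring link protein gene Hapln4 near Ncan (70089325) and in Hapln1 (89595239). The Tnr peak lies beside the region that fell at 159593966.

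The 4 peaks found in controls alone included the one over the Ncan start site (70120515 to 70121086, caller folds 3.99 and 3.68), which covers nearly all of the Ncan sequence printed above. The region in intron 1 beside it had more tags in Fgf13cko without passing the test. The start-site peak has no counts in the table, and a missing call does not show that the site was closed. It is 572 bp wide, under the 650 bp below which Fgf13cko 1 was often low. No contrast within the Ncan promoter is therefore read from these calls. The other 3 lay in Tnr (159663567), in Vcan (89669367) and downstream of Cspg5 (110277424). Acan had 4 merged peaks, 0 of them in all libraries. The one over its start site (79052859 to 79053718), which covers the Acan sequence, was called in control 1 and both Fgf13cko libraries with caller folds of 3.33, 3.39 and 3.21, and not in control 2. Without control 1, 12 peaks were in the controls alone. Without Fgf13cko 1 or Fgf13cko 2, 13 and 17 were in Fgf13cko alone. Leaving out a library loosens the rule, since 1 library then stands for its group. Genome shares for these settings are not given here, so nothing is read from the changes.

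**Figure D5:**
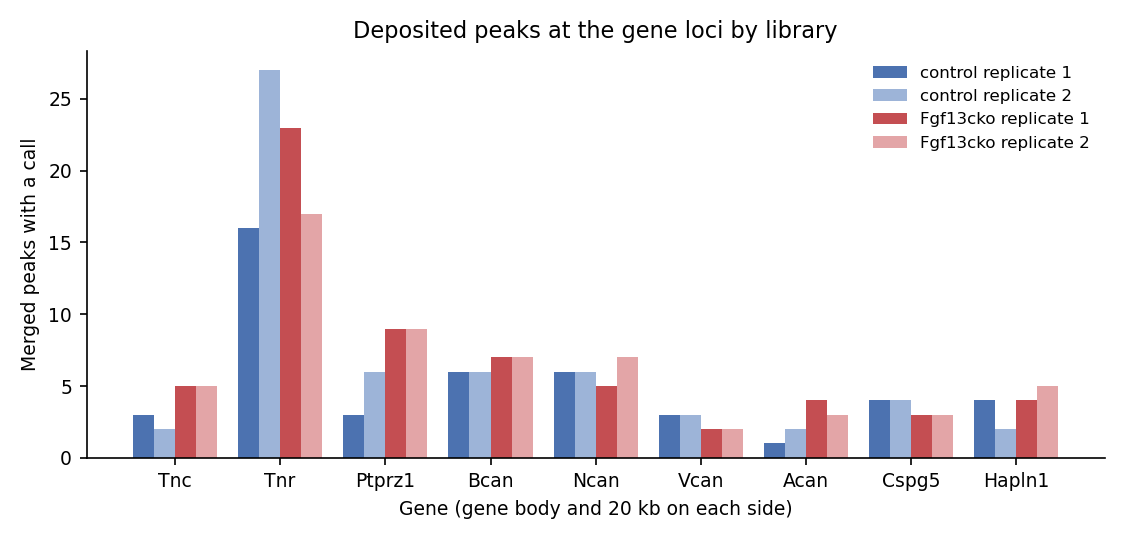
Number of merged peaks with a call (y axis) in each library at the 9 loci (x axis, gene body and 20 kb on each side). Tnr has the most, between 16 and 27 per library, and Ptprz1 has 3 and 6 in controls against 9 and 9 in Fgf13cko. The whole lists hold 38006 and 47148 peaks in controls and 64954 and 54373 in Fgf13cko.

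The enzymes, partners and receptors of this matrix were followed in 6 lists with 75 genes, of which 64 had a tested region. Of their 122 distal regions 19 rose and 0 fell, where 9.48% of all distal regions rose and 2.24% fell. Xylt1 alone held 8 of these rises, among its 19 distal regions, so the total rests in good part on 1 locus. The lists were drawn up with earlier results known, and nothing is read from their totals. Of their 58 promoter regions 3 rose and 1 fell, where 1.42% and 0.760% of all did. Both classes together had 22 of 180 risen and 1 fallen (12.2% and 0.556%, against 6.20% and 1.64% of all tested regions). By list, both classes together, 11 of 64 regions rose for chondroitin sulfate synthesis, 8 of 52 for receptors and ligands, 1 of 7 for other lecticans, link proteins and tenascins, 1 of 28 for other proteoglycans, 1 of 19 for proteases and their inhibitors, and 0 of 10 for hyaluronan synthesis and binding, where 1 fell. Leaving out control 1 or control 2 left 6 and 2 risen regions, and leaving out Fgf13cko 1 or Fgf13cko 2 gave 44 and 47 risen and 7 and 22 fallen.

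In chondroitin sulfate synthesis the rises were concentrated at Xylt1, which encodes the xylosyltransferase that starts the sugar chain, with 8 of its 20 regions. All 8 lie on chromosome 7 between 117139143 and 117687172. The top region (117686342, intergenic) had 40.4 and 37.4 in controls and 151 in each Fgf13cko culture (log2 fold change 1.95, adjusted p = 0.00385). Regions of other genes within 5 Mb of the Xylt1 regions also lay high, with a median of 0.27 and 11.3% risen, and the part of that neighbourhood in the Xylt1 values was not tested. Around the 9 family genes the same medians lay between -0.14 and 0.09. Single distal regions rose at Chst11 (1.45, adjusted p = 0.00673) and Chst3 (0.82, adjusted p = 0.0275), sulfotransferase genes, and at Dsel (1.29, adjusted p = 0.0124), whose region lies 1490 kb from the start site.

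Among receptors and ligands, 3 of 4 regions rose at Itgb1, the integrin beta 1 gene, of which the top region (128654203) had 88.7 and 97.0 against 309 and 291 (log2 fold change 1.69, adjusted p = 0.00385). Rtn4rl1, a Nogo receptor family gene, had 1 distal rise (1.5, adjusted p = 0.00954), as did Itga8, an integrin subunit gene (1.01, adjusted p = 0.02), and Ptn, the gene of the Ptprz1 ligand pleiotrophin (1.07, adjusted p = 0.0406; the region lies in an intron of another gene). The promoters of Cntn1, an adhesion protein that binds Ptprz1 and tenascin R, and of Itgb8 rose (1.44 and 0.85, adjusted p = 0.0265 and 0.0485). Cntn1 had 27.6 and 28.1 in controls and 90.0 and 61.5 in Fgf13cko.

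In the remaining lists, the promoter of Timp4, a metalloproteinase inhibitor gene, had 104 and 105 in controls and 334 and 224 in Fgf13cko (1.41, adjusted p = 0.00997). A distal region of the syndecan gene Sdc3 (1.46, adjusted p = 0.0153) and one of Tnn, the tenascin N gene beside Tnr (0.74, adjusted p = 0.0437), rose. The promoter of Hyal1, a hyaluronidase gene, fell from 106 and 90.2 to 33.4 and 50.9 (-1.21, adjusted p = 0.0313). This region is 599 bp wide, and it was lower in Fgf13cko 1 than in Fgf13cko 2.

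The regions whose counts over the 4 libraries were most like those of the Tnc intron, by Euclidean distance of log2 normalised counts, were nearest to Gm4251 (distance 0.122), Vav3 (0.343) and Prag1 (0.458), all distal. The Gm4251 region overlaps an LTR element on chromosome 14 and had 36.5 and 27.2 in controls and 159 and 187 in Fgf13cko. The likeness covers only 4 libraries.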

How the data were processed

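Accessibility was read from the deposited table, which per the file headers holds estimated counts (raw HOMER tag counts on mm10, all multiples of 0.5). Per the file headers nothing was normalised. Tools in the submitters' processing notes are HOMER, MACS2, Bowtie2, Picard and DESeq2, with no roles. Their versions and any transposase shift or duplicate removal are not given in the sources. In the deposited peak lists, 1 per library, each peak's fold enrichment (a ratio), -log10 p, -log10 q and score are the authors' values, used only to describe peaks.

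Counts were rounded to whole numbers and fitted over all regions with edgeR 4.0.16 in R 4.3.3 (glmQLFit robust, glmQLFTest, two-sided; TMM scaling, filterByExpr, Benjamini-Hochberg adjustment, threshold 0.05, no covariates), which was tested on simulated data. DESeq2 1.42.0, other scalings, filters, promoter windows, a replicate block and each library left out served as alternatives. Peaks overlapping by 1 bp were merged. Members, the 6 pathway lists, the marker lists and the tests were chosen with earlier results of these data known. Named are all promoters, every called region with groups apart, each gene's distal region with the highest control count, and up to 15 pathway genes by size of change. Other member regions were named after their values were seen.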

Additional observations from a re-analysis of the deposited data

How the results depend on the processing

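The log2 fold change of the Tnc intron lay between 2.29 and 3.5 over all settings run. The counts of member regions moved as follows. Those of risen distal regions include the Tnc intron, whose rise prompted the choice of the family, so its part in them is no support. A count of 1 there is that region alone. Among the 31 other distal regions 4 rose and 1 fell in the main fit. In DESeq2 2 of these rose and 0 fell, and under the replicate block 6 rose and 1 fell. Scaled by library size alone, 17644 of all 28801 tested regions rose and 60 fell. In that setting 6 promoter and 21 distal regions of the family rose and 0 fell, and 120 pathway regions rose and 0 fell. The values that changed sign there were 0.9 at Tnc 64148827, 0.95, 0.07 and 0.83 at Tnr 159523270, 159593966 and 159660725, and 0.43 at Hapln1 89606981. In DESeq2 3 distal regions rose and 0 fell. With a mean of at least 50 tags, and with a promoter window of 2 kb, 1 promoter region rose. Fallen pathway regions were 2 with RLE factors, a loess offset, a mean of at least 50 tags, mitochondrial regions left out, or the replicate block. The same-numbered libraries deviated in opposite directions (correlation -0.237), so the numbers are not taken to pair them. Under the block 7 distal regions rose, with Tnr 159741039 and Ptprz1 22802067 added, and Tnr 159523270 had 0.01. A crossed replicate block, chosen after seeing the data, gave 0.01 there, 7 risen distal regions, 1 risen promoter and 3 fallen pathway regions. Over all regions 1786 rose and 472 fell, against 2105 and 703 under the replicate block, 2693 and 1124 under the crossed block, 2238 and 1179 with a loess offset, 1184 and 319 in DESeq2, 1998 and 853 with at least 50 tags, 416 and 69 without control 1, 192 and 32 without control 2, 4125 and 2875 without Fgf13cko 1 and 5100 and 4986 without Fgf13cko 2. Leaving out each library gave 0 to 3 risen promoters, 1 to 11 risen and 0 to 5 fallen distal regions, 2 to 47 risen and 0 to 22 fallen pathway regions, and 11 to 17 and 5 to 12 peaks in Fgf13cko or controls alone. Regions that changed sign there ranged from -0.66 to 0.26 (Tnc 64148827), -0.27 to 0.32 (Tnr 159523270), -0.45 to 0.13 (Tnr 159660725), -0.1 to 0.29 (Ptprz1 22794099), -0.02 to 0.62 (Ptprz1 22875052), -0.25 to 0.26 (Vcan 89742205) and -0.07 to 0.36 (Acan 78990113). The causes were not tested.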
